A study of Gallus gallus with 8 samples.

Results

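The transporters of sugars, amino acids and monocarboxylates were examined across the embryonic day 13 chicken lens. Members were the loci whose gene symbol starts with SLC1A, SLC2A, SLC3A, SLC5A, SLC6A, SLC7A, SLC15A, SLC16A, SLC23A, SLC36A, SLC38A or SLC43A followed by a number. The rule found 88 of 16906 loci, and 163 other loci with a solute carrier name served for comparison. Lenses were microdissected into 4 regions that follow each other in differentiation. EC is the epithelium at the center of the lens front and EQ that at the equator, while FP denotes the fibers of the cortex and FC those of the core. No treatment, strain or genotype was named for any group. For each region 2 libraries were made from pools of 100 lenses, and since each set of lenses was divided into all regions, the libraries of 2 regions can share lenses. The mRNA was sequenced with directional libraries, and the level of a locus is given in FPKM, the fragments counted per unit of transcript length and of mapped fragments.

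The lens has no blood vessels after its early development and takes up glucose, amino acids and other solutes from the fluids around it. Facilitated sugar carriers of the SLC2 family let glucose pass down its gradient, SLC5 carriers couple sugars, inositol and vitamins to sodium, and monocarboxylate carriers of the SLC16 family move lactate together with a proton. Amino acid carriers exchange or concentrate their substrates, and the taurine and creatine carriers of the SLC6 family bring in solutes used to balance cell volume and to buffer energy. Fibers lose their organelles as they mature and are thought to rely largely on glycolysis.

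One FPKM was available for each region, which the authors had pooled over its 2 libraries and gave with a 95% interval. No spread between libraries could be computed, and no p-value is given. A locus was compared where its FPKM was above 0 on both sides and 1 or more in at least 1 of the regions compared. In what follows "rose" and "fell" mean a difference of at least 2-fold together with intervals that did not overlap, and other differences are given as folds with their values. Overlap of intervals does not show that levels are equal. Fibers were set against epithelium by dividing FP + FC by EC + EQ. The intervals were wide, with a median half-width among members at 1 FPKM or more of 73.1% of the value for EC, 69.3% for EQ, 83.1% for FP and 86.0% for FC. The deposited table holds no read counts, so the counting error of a value could not be given, and in bulk RNA fewer cells of a type and less RNA per cell cannot be told apart.

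The regions carried lens identity by their markers. All 8 lens fiber markers found were at least 2-fold higher in fibers, and their summed FPKM was 1548 for EC, 5751 for EQ, 54490 for FP and 83652 for FC. None of the 8 had both fiber intervals clear of both epithelial ones, and that of BFSP1 in FC ran from 0.563 to 47935. Of the 6 lens epithelium markers found, 5 were compared, and GJA1 was 5.25-fold and TFAP2A 2.57-fold lower in fibers, with CDH1 1.54-fold and CDH2 1.25-fold lower. CLDN1 was higher in fibers (0.499, 0.264, 14.8 and 15.1 FPKM in EC, EQ, FP and FC), and FOXE3 stayed at 0.159 to 0.735 FPKM. Red blood cell markers were not even across regions. Of the 7 loci found, 4 reached 1 FPKM, and their list summed to 759 FPKM for EC, 128 for EQ, 165 for FP and 248 for FC, with both HBZ loci at 0 outside FC and at no more than 0.0837 FPKM there.

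Of the 88 members, 56 (63.6%) reached 1 FPKM in at least 1 region against 73.1% of all loci, and 30 (34.1%) reached 10 FPKM against 38.7%. Of these 56, 20 (35.7%) were highest in EQ, 17 (30.4%) in EC, 12 (21.4%) in FC and 7 (12.5%) in FP, close to the shares of 35.8%, 24.6%, 25.7% and 13.9% among all loci at 1 FPKM or more. The summed FPKM of the members was 1443 for EC, 2470 for EQ, 954 for FP and 1047 for FC. The 5 members above 100 FPKM (SLC2A1, both SLC7A5 loci, SLC38A2 and SLC16A1) made up 62.5% of that sum for EC, 73.2% for EQ, 55.2% for FP and 58.0% for FC. The FPKM of all loci also summed to more in epithelium than in fibers (5979420, 5908470, 3429210 and 2624540 for the 4 regions in the same order).

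Most of the change fell at the step from equatorial epithelium to cortical fibers. From EQ to FP, 21 of 46 members compared (45.7%) were at least 2-fold lower and 9 (19.6%) at least 2-fold higher, while 25.7% of all 11005 loci compared were lower and 15.5% higher. With intervals that did not overlap, 4 members fell (8.70%, against 2.53% of all loci) and 3 rose (6.52%, against 2.39%). Those that fell were SLC16A1, SLC2A12, SLC38A5 and SLC6A6, and those that rose were SLC16A6, SLC43A2 and SLC6A20. The interval rule is not the paper's test. That test between EQ and FP also listed members with overlapping intervals as lower in FP, among them SLC38A1, SLC38A11 and SLC16A12. The median log2 ratio at this step was -0.78 for the members and -0.30 for all loci. With the regions rescaled by the median ratio over 9068 loci, 19 members were lower and 9 higher, and 17.3% of all loci were lower and 20.0% higher. This scaling moved the median of all loci by 0.30. The difference between the members' median and that of all loci was -0.48, which a factor per region cannot change.

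The steps within the epithelium and within the fibers were smaller. From EC to EQ, 6 of 51 members (11.8%) were at least 2-fold higher and 8 (15.7%) at least 2-fold lower, against 8.89% and 9.36% of all 11173 loci. None rose with separate intervals and 1 fell, where 0.761% of all loci rose and 0.698% fell. The median ratio scaling moved all loci by -0.26 at this step, with 5.67% of them then higher and 12.6% lower, and left 4 members higher and 8 lower. From FP to FC, 2 of 47 members were at least 2-fold higher (SLC5A10 and SLC6A12) and SLC2A2 was lower, against 3.04% and 2.83% of all 10475 loci, and 1 was higher and 1 lower under the median ratio scaling. No member changed with separate intervals between the fiber regions, where the share of all loci was 0.0382% for a rise and 0.0% for a fall. With intervals this wide, the interval rule told no transporter transcript apart between the cortical and central fibers. The paper's own test of this step was not set beside it.

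Over the whole lens, 26 of 56 members (46.4%) were at least 2-fold lower in fibers than in epithelium and 11 (19.6%) were at least 2-fold higher. The same shares were 24.6% and 16.8% of all 11829 loci, and 36.1% and 16.8% of 119 other solute carrier loci. Only 3 members had both fiber intervals clear of both epithelial ones, SLC16A6 and SLC6A20 above and SLC38A5 below, where 1.17% of all loci lay above and 0.44% below. The median log2 ratio was -0.87 for the members, -0.49 for the other solute carriers and -0.20 for all loci. The lower level in fibers was most marked in the SLC38 class, with a median of -2.56 over 9 members (-1.61 with a pseudocount of 1) of which 7 were at least 2-fold lower, while the 10 SLC6 members had a median of -0.20 with 4 lower and 3 higher, and the sign of that last median turned with the settings (-0.45 to 0.057).

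**Figure D1:**
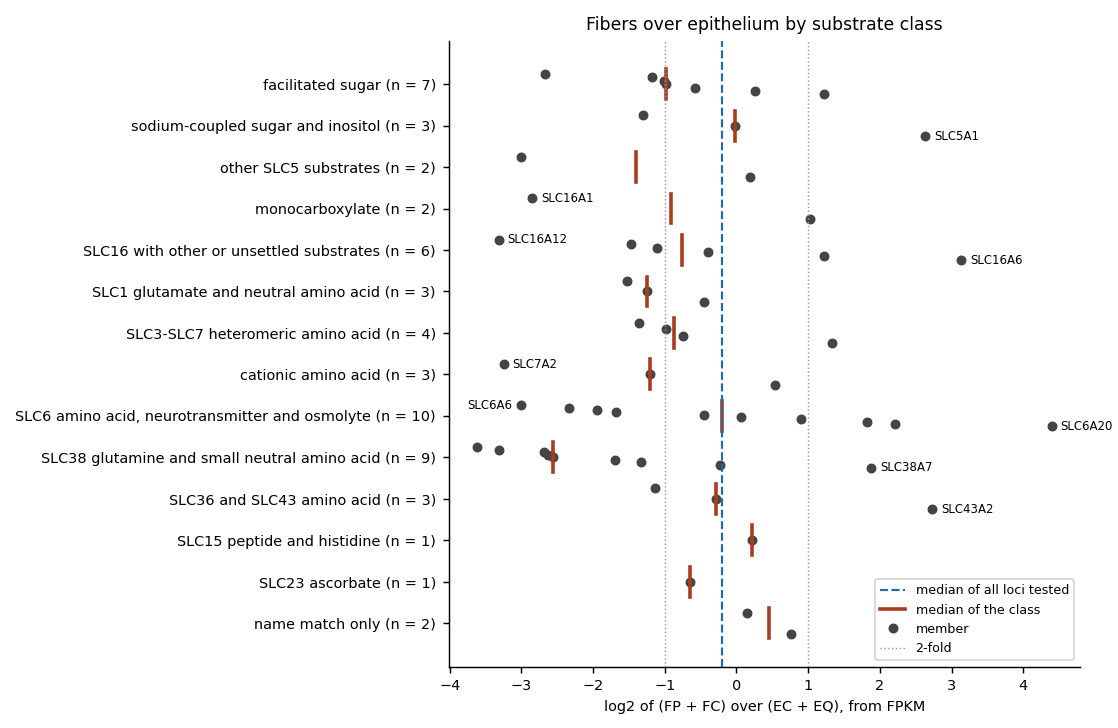
Log2 ratio of fibers (FP + FC) over epithelium (EC + EQ), from FPKM, for the 56 members compared, each a point in the row of its substrate class, with the class median (solid bar), the median of all loci (dashed line, -0.20) and the 2-fold limits (dotted lines). Most SLC38 members lie beyond 2-fold on the left, and most classes hold members on both sides, from SLC16A12 (9.98-fold lower) to SLC16A6 (8.75-fold higher) within the SLC16 family.

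Among the facilitated sugar carriers, SLC2A1 (GLUT1, the basal glucose carrier of many tissues; chromosome 21, 6448906 to 6459232, in the Galgal4 positions of the files) was the leading transcript in every region. It stood at 326 FPKM for EC (95% interval 44.3 to 607), 596 for EQ (19.3 to 1204), 225 for FP (4.77 to 571) and 239 for FC (13.6 to 541). It made up 81.0% of the summed FPKM of its class for EC, 86.9% for EQ, 78.6% for FP and 80.4% for FC. SLC2A1 was 1.99-fold lower in fibers, just inside the 2-fold limit, which it passed under the upper quartile scaling, and its 4 intervals overlapped. By FPKM, the leading glucose carrier was therefore the same on both sides of the epithelium to fiber boundary. Within each region the interval of SLC2A1 overlapped that of another class member.

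The smaller SLC2 members took different courses. SLC2A8, an intracellular sugar carrier, was level at 24.0, 32.0, 33.4 and 33.7 FPKM in EC, EQ, FP and FC. SLC2A12, a glucose carrier described in muscle and other tissues, measured 10.9 FPKM for EC, 15.6 for EQ, 1.75 for FP and 2.40 for FC, and fell 8.90-fold from EQ (5.99 to 25.3) to FP (0.246 to 3.62). The FC interval of SLC2A12 (0.614 to 4.58) also lay below that of EQ, though not below that of EC (2.95 to 19.2). SLC2A10, in which human mutations cause arterial tortuosity, measured 26.2, 21.4, 12.4 and 11.2 FPKM, and its 2.02-fold lower level in fibers did not pass 2-fold under the median ratio scaling. SLC2A3, the high-affinity glucose carrier of neurons, measured 12.2, 18.3, 10.9 and 9.39 FPKM, but its locus shares 3 of 8 neighbors with RefSeq SLC2A14, and its name is uncertain. The other 5 class members stayed below 1.5 FPKM in all regions.

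The 3 sodium-coupled sugar and inositol carriers compared were low, with 1 at least 2-fold higher in fibers, 1 at least 2-fold lower and SLC5A10 within 2-fold. SLC5A1 (SGLT1, the sodium-glucose carrier of gut and kidney; chromosome 15) measured 0.393 FPKM for EC (0 to 0.830), 1.22 for EQ (0.373 to 2.03), 5.6 for FP (1.24 to 11.1) and 4.41 for FC (1.16 to 8.42). It was 6.21-fold higher in fibers, and both fiber intervals lay above that of EC while overlapping that of EQ. SLC5A3, the myo-inositol carrier, measured 1.32, 1.86, 0.862 and 0.425 FPKM, and was 2.47-fold lower in fibers with overlapping intervals. The top member of this class was SLC5A3 in EC and EQ and SLC5A1 in FP and FC. Outside the sugar carriers, SLC5A6, which takes up biotin and pantothenate, ranged from 6.61 to 10.6 FPKM, and the choline carrier SLC5A7 measured 4.17 FPKM in EC (0.809 to 9.17) against 0.507, 0.339 and 0.242 in EQ, FP and FC. Both fiber intervals of SLC5A7 lay below that of EC.

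By FPKM, the lactate carriers exchanged places at the fiber boundary. SLC16A1 (MCT1; chromosome 26, 3552667 to 3567609) measured 193 FPKM for EC (25 to 362), 211 for EQ (47.7 to 374), 25.8 for FP (6.51 to 45.2) and 30.3 for FC (5.65 to 58.7), and it fell 8.15-fold from EQ to FP. SLC16A3 (MCT4, a lactate exporter of glycolytic cells; the locus on chromosome 18, 4838606 to 4844863) measured 40.6 FPKM for EC (12.2 to 68.8), 32.8 for EQ (6.72 to 59.2), 73.1 for FP (3.70 to 209) and 76.5 for FC (7.34 to 180). SLC16A1 was 4.75 times SLC16A3 in EC and 6.42 times in EQ, whereas SLC16A3 was 2.83 times SLC16A1 in FP and 2.53 times in FC. The intervals of SLC16A1 and SLC16A3 overlapped in every region, so their order within a region is uncertain. The 2.04-fold higher level of SLC16A3 in fibers had overlapping intervals and did not pass 2-fold under the upper quartile scaling, so the exchange of the leading member rests mainly on SLC16A1. The summed FPKM of the monocarboxylate class was 235 for EC, 245 for EQ, 101 for FP and 108 for FC.

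The other 4 members of the monocarboxylate class, SLC16A7 (MCT2), SLC5A8, SLC5A12 and a second SLC16A3 locus on chromosome 1, stayed below 1 FPKM. That second locus shares 6 of 8 neighbors with RefSeq SLC16A8 (MCT3, known from the retinal pigment epithelium), so its symbol in the files is uncertain. BSG (basigin), the partner that carries MCT1 and MCT4 to the membrane, measured 277, 402, 386 and 464 FPKM in EC, EQ, FP and FC, and its intervals overlapped in all regions. LDHA, the lactate dehydrogenase subunit of glycolytic tissue, measured 4469 FPKM for EC (53.7 to 9113), 771 for EQ, 382 for FP and 279 for FC, which was 7.93-fold lower in fibers with overlapping intervals. LDHB stayed within 2-fold at 136, 218, 128 and 157 FPKM.

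**Figure D2:**
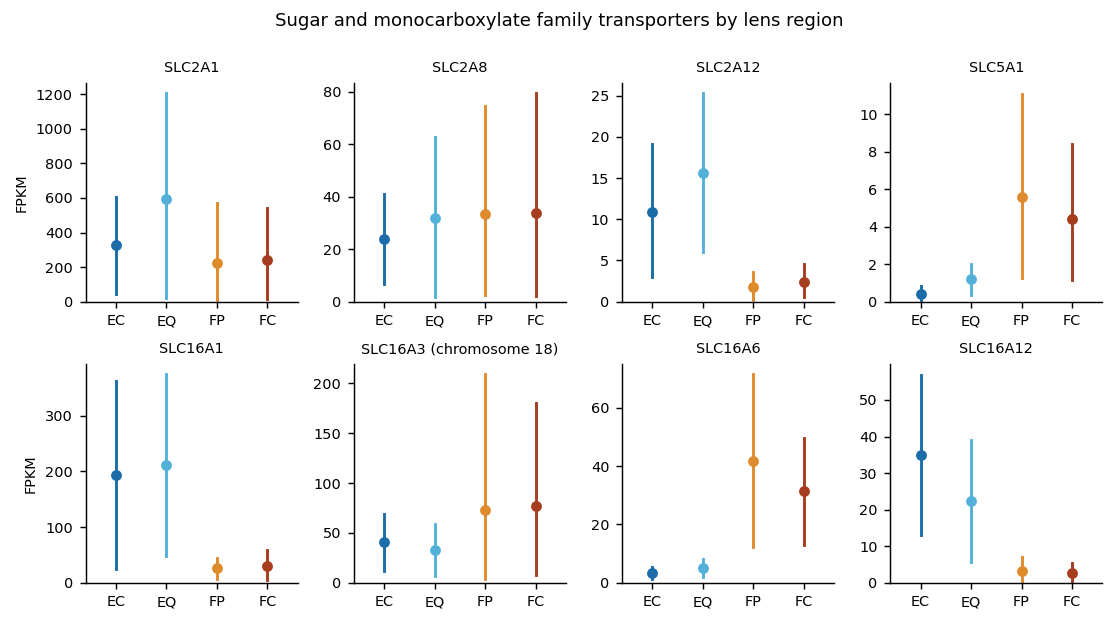
FPKM (points) with the 95% interval of the deposited table (lines) in EC, EQ, FP and FC for 8 sugar and SLC16 members, each panel with its own linear axis from 0. SLC16A1 and SLC2A12 sit lower in both fiber regions, SLC16A6 sits higher with fiber intervals (from 12.1 and 13.0 upward) above those of the epithelium (up to 8.01), and SLC2A8 is level.

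Of the SLC16 members with other substrates, SLC16A6 and SLC16A12 moved in opposite directions. SLC16A6 (MCT7, which exports ketone bodies from zebrafish liver; chromosome 18, 8080241 to 8086435) measured 3.38 FPKM for EC (1.26 to 5.48), 4.98 for EQ (1.94 to 8.01), 41.8 for FP (12.1 to 71.5) and 31.4 for FC (13.0 to 49.7). It was 8.75-fold higher in fibers, with both fiber intervals above both epithelial ones. SLC16A12, a creatine carrier in which a human mutation causes juvenile cataract (chromosome 6, 18906367 to 18916252), measured 35 FPKM for EC (13.0 to 57.0), 22.3 for EQ (5.6 to 39.0), 3.19 for FP (0.435 to 6.92) and 2.55 for FC (0.489 to 5.49). It was 9.98-fold lower in fibers, and both fiber intervals lay below that of EC, although the FP interval overlapped that of EQ. The leading member of this class was SLC16A12 in EC, SLC16A5 in EQ and SLC16A6 in the fibers.

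Other SLC16 members were less divided between epithelium and fibers. SLC16A5 (MCT6) measured 13.7 FPKM for EC (5.88 to 21.6), 53.7 for EQ (20.5 to 86.8), 16.1 for FP (6.03 to 26.2) and 15.1 for FC (5.28 to 24.9), 3.91-fold higher in EQ than in EC with intervals that just overlapped. SLC16A9 measured 3.35, 6.45, 10.1 and 12.8 FPKM and was 2.34-fold higher in fibers with overlapping intervals. SLC16A13 was listed at 0 in FP and at or below 0.797 FPKM elsewhere.

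Large neutral amino acid exchange was represented mainly by SLC7A5 (LAT1), which imports leucine and other essential amino acids in exchange for glutamine. The files list it at 2 loci, one on an unplaced scaffold and the other on chromosome 11 (17424759 to 17461135), and reads of 35 bases can be shared between near-identical copies, so the split between them is uncertain. Each locus enters the counts of members, so a single gene may be counted at both. The scaffold locus measured 262 FPKM for EC (55.2 to 469), 586 for EQ (105 to 1067), 195 for FP (26.4 to 365) and 232 for FC (18.7 to 523). The chromosome 11 locus measured 67.3, 157, 57.7 and 76.1 FPKM in the same order. The scaffold locus stood at 3.90, 3.74, 3.39 and 3.05 times the other in EC, EQ, FP and FC, so both followed nearly the same course. No locus carried the symbol of the heavy chain SLC3A2, so its level is not given. SLC3A1, the heavy chain of cystine and dibasic amino acid exchange, measured 2.29, 1.94, 4.38 and 6.26 FPKM and was 2.52-fold higher in fibers with overlapping intervals. SLC7A6, another light chain, measured 6.51, 8.85, 3.08 and 2.88 FPKM and was 2.57-fold lower in fibers, also with overlapping intervals. The cystine-glutamate exchanger SLC7A11 stayed between 0.235 and 0.373 FPKM.

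Cationic amino acid carriers, which bring in arginine and lysine, showed another exchange of the leading member by FPKM. SLC7A3, a cationic carrier that the paper lists under an Ensembl identifier, was missed by the rule on symbols and is not in the class. SLC7A2 (chromosome 4, 62631861 to 62652326) measured 26.1 FPKM for EC (8.00 to 44.2), 34.7 for EQ (4.78 to 71.0), 2.62 for FP (0.593 to 6.28) and 3.78 for FC (0.887 to 11.4), 9.50-fold lower in fibers. Its FP interval lay below that of EC, and its other fiber and epithelial intervals overlapped. SLC7A1, the widely expressed carrier of the same substrates, measured 6.96, 8.51, 11 and 11.5 FPKM with overlapping intervals. SLC7A2 was 3.75 times SLC7A1 in EC and 4.07 times in EQ, while SLC7A1 was 4.18 times SLC7A2 in FP and 3.05 times in FC. Within each region the intervals of SLC7A1 and SLC7A2 overlapped, in FP from 3.64 to 18.3 against 0.593 to 6.28.

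The glutamine and small neutral amino acid carriers of the SLC38 family were lower in fibers in most cases. SLC38A5 (SNAT5; chromosome 12, 3204933 to 3208668) measured 26.2 FPKM for EC (10.8 to 41.6), 23.9 for EQ (10.1 to 37.6), 4.05 for FP (1.42 to 6.6) and 4.09 for FC (1.59 to 6.6). It was 6.16-fold lower in fibers with both fiber intervals below both epithelial ones, and since its locus shares 4 of 9 neighbors with RefSeq SLC38A3, a closely related glutamine carrier, its name is uncertain. SLC38A1 (SNAT1) measured 59.6, 66.0, 9.54 and 10.02 FPKM, 6.42-fold lower in fibers. SLC38A2 (SNAT2, which is induced when amino acids are scarce) measured 54.7 FPKM for EC (14.7 to 94.3), 258 for EQ (17.7 to 579), 22.9 for FP (4.29 to 64.4) and 30.2 for FC (1.84 to 73.1), 5.89-fold lower in fibers. The fiber and epithelial intervals of SLC38A1 and of SLC38A2 overlapped, though the paper's own test listed SLC38A1 as lower in FP than in EQ.

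The remaining SLC38 members did not share one course. SLC38A7, a glutamine exporter of the lysosome, measured 4.44 FPKM for EC (0.973 to 7.93), 5.34 for EQ (1.82 to 8.86), 15.3 for FP (4.86 to 25.7) and 20.7 for FC (2.90 to 38.5), and its 3.68-fold higher level in fibers made it the only SLC38 member at least 2-fold higher there, with overlapping intervals. SLC38A9, the lysosomal arginine sensor upstream of the kinase mTOR, was level at 1.56, 1.95, 1.63 and 1.36 FPKM. SLC38A10 measured 21.6, 14.0, 5.04 and 5.95 FPKM and was 3.23-fold lower in fibers with overlapping intervals. SLC38A11 measured 2.72 FPKM for EC (0.687 to 5.36), 1.78 for EQ, 0.256 for FP (0 to 0.584) and 0.195 for FC (0 to 0.618), and both fiber intervals lay below that of EC. SLC38A8 reached 1.00 FPKM in EC with an interval from 0 to 4.22, and its lower bound was 0 in every region, so its low level in fibers carries little weight.

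The SLC6 carriers held the largest difference upward as well as a member that fell sharply. SLC6A6, the taurine carrier (chromosome 12, 10950950 to 10996958), measured 48.2 FPKM for EC (12.5 to 83.9), 79.6 for EQ (20.0 to 139), 7.31 for FP (1.51 to 14.2) and 8.67 for FC (2.65 to 20.1), and it fell 10.9-fold from EQ to FP. The creatine carrier SLC6A8 measured 18.8, 33.3, 22.8 and 31.4 FPKM, 1.04-fold higher in fibers with overlapping intervals. SLC6A6 was 2.57 times SLC6A8 in EC and 2.39 times in EQ, while SLC6A8 was 3.12 times SLC6A6 in FP and 3.62 times in FC. Within each region the intervals of SLC6A6 and SLC6A8 overlapped. Of the creatine carrier transcripts, that of SLC16A12 was thus lower in fibers while that of SLC6A8 stayed within 2-fold.

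SLC6A20, a carrier of proline and other imino acids (chromosome 2, 43395715 to 43406830), measured 0.510 FPKM for EC (0 to 0.944), 0.491 for EQ (0.0859 to 0.944), 11.3 for FP (4.64 to 17.9) and 9.79 for FC (4.04 to 15.6). Its fibers were 21.0-fold above its epithelium, the largest ratio among the members compared, and both fiber intervals lay above both epithelial ones. SLC6A9, the glycine carrier, measured 24.1 FPKM for EC (5.25 to 43), 10.1 for EQ, 3.49 for FP and 3.26 for FC (1.10 to 5.43), 5.05-fold lower in fibers with overlapping intervals.

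**Figure D3:**
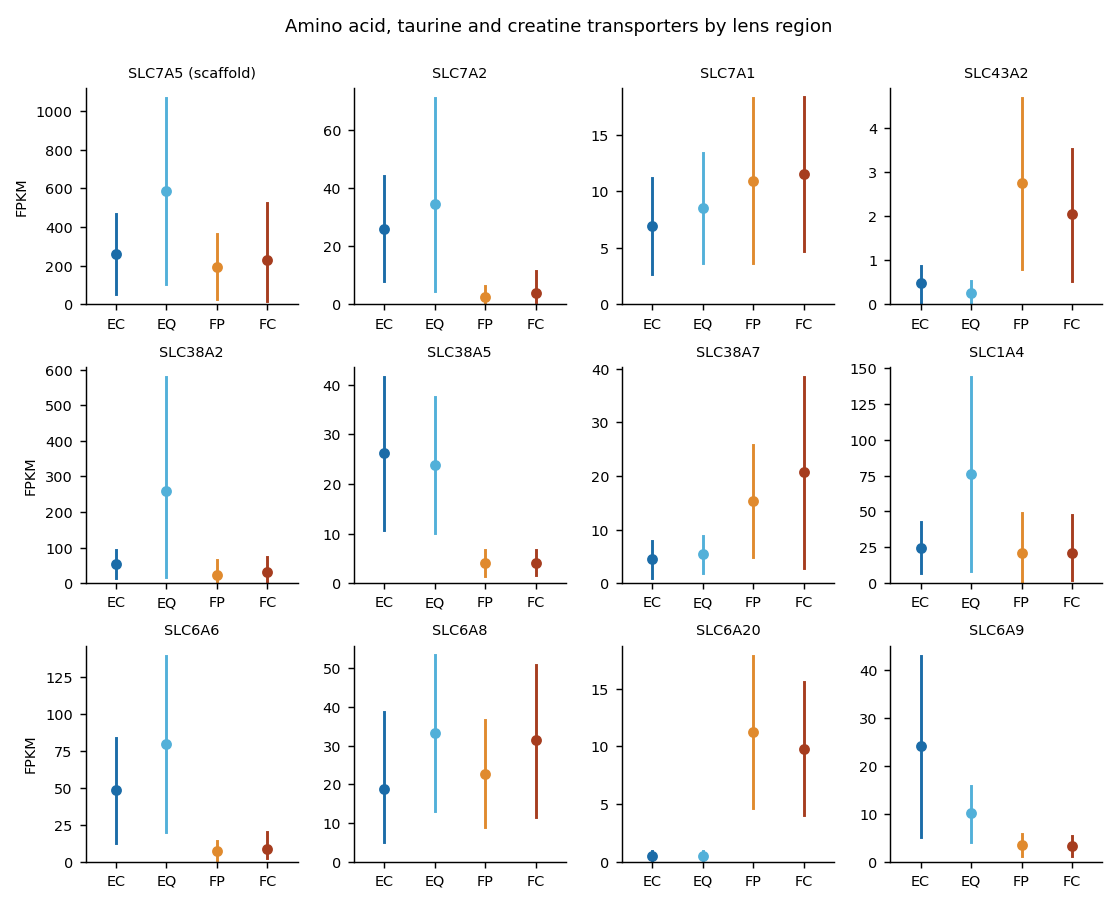
FPKM (points) with the 95% interval of the deposited table (lines) in EC, EQ, FP and FC for 12 amino acid, taurine and creatine carriers, each panel with its own linear axis from 0. SLC38A5, SLC7A2 and SLC6A6 sit lower in fibers and SLC6A20 and SLC43A2 higher. SLC38A2 and SLC1A4 are highest in EQ with wide intervals, and the values of SLC6A8 and SLC7A1 stay within 2-fold.

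In the remaining classes, SLC43A2 (LAT4, a carrier of branched-chain amino acids) measured 0.476 FPKM for EC (0 to 0.882), 0.250 for EQ (0 to 0.529), 2.76 for FP (0.794 to 4.67) and 2.06 for FC (0.529 to 3.53). It rose 11.1-fold from EQ to FP and was 6.64-fold higher in fibers, though both fiber intervals overlapped that of EC. There it took the lead of its class by FPKM from SLC43A3 (3.46, 3.36, 1.97 and 1.13 FPKM), with overlapping intervals. SLC1A4 (ASCT1, a carrier of serine and other small neutral amino acids) measured 24.8, 75.8, 21.1 and 21.2 FPKM, and the glutamate carrier SLC1A2 measured 4.07, 4.37, 1.26 and 1.68 FPKM, 2.87-fold lower in fibers with overlapping intervals. SLC15A4, a lysosomal carrier of histidine and dipeptides, was level at 10.4, 12.9, 14.1 and 13.0 FPKM. The ascorbate carrier SLC23A1 measured 1.82 FPKM in EC and 0.633 to 0.788 in the other regions, with overlapping intervals. SLC7A6OS and SLC2A4RG matched the rule by their symbols alone and are no transporters, though both are counted among the members. SLC2A4RG ranged from 1.11 to 1.71 FPKM, and SLC7A6OS measured 12.3, 12.5, 19.6 and 22.4 FPKM. SLC7A6OS lies 2114 bases from SLC7A6, and its fibers were 1.70-fold above its epithelium while those of SLC7A6 were 2.57-fold below.

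Some members were highest in the equatorial epithelium, where cells leave the cell cycle and begin to elongate. There 5 of 54 members (9.26%) were at least 2-fold above both EC and FP: SLC38A2, SLC1A4, SLC16A5 and both SLC7A5 loci. The share was 3.29% of all 11397 loci and 4.24% of 118 other solute carrier loci. Both SLC7A5 loci may be copies of 1 gene, which would then be counted at each locus. From EC to EQ these 5 members were 4.72-fold, 3.06-fold, 3.91-fold, 2.24-fold (SLC7A5 on the scaffold) and 2.33-fold (SLC7A5 on chromosome 11) higher. None of these had an EQ interval clear of that of EC. The count was 3 under the median ratio scaling, for which the share of all loci is not given here. The paper's own test between EC and EQ listed SLC38A2 and SLC16A5 as different, but not SLC1A4 or SLC7A5. Markers of other cells also differed between EC and EQ, in both directions. The mesenchyme list, of which 4 of 7 found reached 1 FPKM, summed to 29.3, 96.3, 24.6 and 26.7 FPKM in EC, EQ, FP and FC. In EC and EQ this came mostly from PDGFRA (17.5, 88.8, 8.79 and 12.4 FPKM), which lens epithelium also expresses. COL1A2 of the same list was lower in EQ (2.74 FPKM) than in EC (8.41). The leukocyte list, of which 2 of 5 found reached 1 FPKM, summed to 11.8, 27.6, 7.42 and 12.9 FPKM in the same order. Most of it was CD74 (8.69, 24.8, 6.72 and 11.7 FPKM, with an EQ interval from 0 to 88.7), and LAPTM5 was at 0 in FP. The endothelium list, of which 4 of 6 found reached 1 FPKM, summed to 4.64, 3.22, 5.09 and 3.15 FPKM. Of its 2 markers compared from EC to EQ, VWF was 8.75-fold lower in EQ, with separate intervals. The other, KDR, was 1.52-fold higher in EQ with overlapping intervals. TIE1 was higher in FP (2.35 FPKM) than in EQ (0.222 FPKM), with separate intervals. The part of such cells in the EQ levels was not tested. SLC38A1, which lies 23984 bases from SLC38A2 on chromosome 1, was 1.11-fold higher in EQ than in EC with overlapping intervals.

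Members at least 2-fold lower in EQ than in EC included SLC5A7 (8.23-fold), SLC16A4 (3.78-fold), SLC38A8 (3.68-fold), SLC6A13 (2.91-fold), SLC23A1 (2.88-fold), SLC6A9 (2.39-fold) and SLC6A4 (2.39-fold), all with overlapping intervals. Outside SLC6A9 and SLC5A7 they stayed below 2 FPKM in EC. Among them, only SLC5A7 was listed as lower in EQ by the paper's own test. The red blood cell markers HBAA and HBAD were lower in EQ as well (HBAA 564, 94.1, 138 and 204 FPKM, and HBAD 191, 32.4, 25.2 and 43.2 FPKM in EC, EQ, FP and FC). The list of retina, ciliary body and pigment epithelium markers, of which 5 of 8 found reached 1 FPKM, summed to 47.3 FPKM for EC, 22.7 for EQ, 13.2 for FP and 15.9 for FC. Of the 5 compared from EC to EQ, 3 were at least 2-fold lower. By FPKM most of the difference was SIX6 (23.3 in EC and 3.63 in EQ). RLBP1 was nearly the same in both (13.1 and 13.4 FPKM), and MITF was 1.77-fold higher in EQ. The part of such cells in the EC levels was not tested.

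The leading member changed between EC and FC in 7 of 13 substrate classes. Leaders were ranked by FPKM alone, and their intervals could overlap those of other members. In EC, SLC38A1 was only 1.09 times SLC38A2 (14.9 to 104 against 14.7 to 94.3). In FP, SLC43A2 (0.794 to 4.67) overlapped SLC43A3 (0.251 to 3.67). The leader differed between EQ and FP in 6 classes, between EC and EQ in 2 (SLC38A1 to SLC38A2, and SLC16A12 to SLC16A5) and between FP and FC in none, the SLC16 class with other substrates changing at both of the first steps. In the monocarboxylate class SLC16A1 made up 82.2% of the summed FPKM in EC and SLC16A3 70.9% in FC. In the cationic class, which lacks SLC7A3, SLC7A2 made up 74.3% in EC and SLC7A1 70.0% in FC. The leading members of the facilitated sugar, SLC1, SLC3-SLC7, SLC15, SLC23 and remaining SLC5 classes were the same in all regions.

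**Figure D4:**
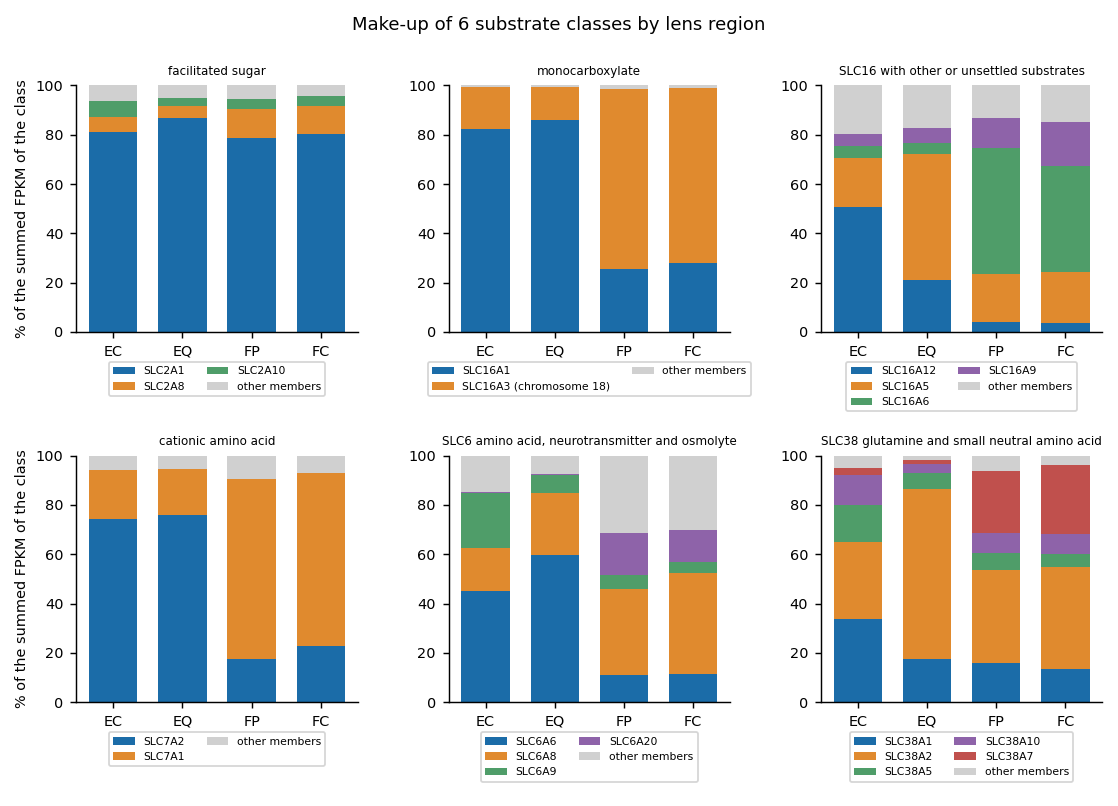
Share of the summed FPKM of 6 substrate classes (percent, stacked to 100) taken by the members shown in EC, EQ, FP and FC. SLC2A1 leads the facilitated sugar class throughout, while the leading member of the other classes in FC differs from that in EC, as for SLC16A1 (82.2% in EC) and SLC16A3 (70.9% in FC).

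The other 32 members stayed below 1 FPKM in all regions, with a highest value of 0.941 (SLC6A19 in FP). All of these had a lower bound of 0 in at least 1 region and 19 had it in all regions. They included the glutamate carriers SLC1A1 (0.290 to 0.596 FPKM) and SLC1A3 (0.233 to 0.462), the fructose carrier SLC2A5 (0.268 to 0.687), the urate carrier SLC2A9 (0.166 to 0.195) and the inositol carrier SLC5A11 (0.346 to 0.487). SLC6A5 and SLC16A13 were listed at 0 in FP. The regions were not compared for these 32 members in the main counts, since all lay below the minimum of 1 FPKM.

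Genes that act on the carried substrates were followed in 5 lists, with 38 symbols found. Of 34 compared, 10 (29.4%) were at least 2-fold lower in fibers and 5 (14.7%) higher, near the 24.6% and 16.8% of all loci, with a median log2 ratio of -0.57. In the glutathione and amino acid list, GGT1, which splits extracellular glutathione, measured 1.51 FPKM for EC (0.513 to 2.50), 2.75 for EQ (1.03 to 4.42), 18.9 for FP (8.08 to 29.6) and 19.2 for FC (7.44 to 30.9), 8.94-fold higher in fibers with both fiber intervals above both epithelial ones. GLUL, which makes glutamine, measured 8.06, 21.6, 2.08 and 3.49 FPKM, and it fell from EQ (9.0 to 34.1) to FP (0.664 to 3.47). CBS and CTH, which lead from homocysteine to cysteine, were 5.69-fold and 4.25-fold lower in fibers. Both fiber intervals of CBS (up to 3.93) lay below that of EC (from 4.30) and overlapped that of EQ, and the intervals of CTH overlapped. The paper's own test listed CBS and CTH as lower in FP than in EQ.

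Among the sensing and sugar-use genes, MTOR, the growth kinase activated by amino acids, measured 5.47 FPKM for EC (1.82 to 9.10), 8.83 for EQ (3.49 to 14.2), 50.5 for FP (9.12 to 92.0) and 52.3 for FC (7.22 to 97.7), 7.19-fold higher in fibers with intervals that overlapped between FP and EQ and between FC and both epithelial regions. By western blot of the same regions, the paper found differences between the transcript and protein of mTOR, so its transcript does not stand for its protein. HIF1A, the oxygen-regulated activator of glycolytic genes, measured 136, 234, 38.9 and 48.2 FPKM, 4.25-fold lower in fibers. IMPA2, an enzyme of inositol release, was 4.06-fold lower. The aldose reductase AKR1B1, which turns glucose into sorbitol, measured 9.29, 11.9, 24.2 and 28.9 FPKM, 2.51-fold higher in fibers. The fiber and epithelial intervals of HIF1A, IMPA2 and AKR1B1 overlapped.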

How the data were processed

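Microdissected lens regions of embryonic day 13 chickens were sequenced by the authors in 8 directional mRNA libraries, 2 for each of 4 regions. Reads were aligned with TopHat to Galgal4, and levels were estimated with cufflinks and cuffdiff (version 2.1.1 in the submitters' processing notes). The deposited table gives FPKM values, pooled by the authors over the libraries of a region, with 95% bounds. Values per library were not analysed here (0 columns of per-sample values were left out), and the deposited table holds no read counts. Bounds were whole multiples of 1 step (tolerance 0.01) at 64.5% of 15089 loci, but of these loci only 12.7 to 15.1% had an FPKM within 0.05 of a whole multiple, so reads were not recovered. The deposited comparison table, which holds the authors' fold changes, p-values and q-values, was not used.

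Members were selected by symbol, and 84 of their 86 distinct symbols were found in the RefSeq gene table (GRCg7b), used for names and neighbors (4 on each side) only. Folds were computed from FPKM with no pseudocount, a threshold of 2 and a minimum of 1 FPKM, as set out with the results. Genes were named by rule: the top member of each substrate class, members past 2-fold with separate intervals, members past 4-fold between fibers and epithelium, and members at 10 FPKM or more. Some genes that the rule would name are not reported here. Others named, among them those low in EQ, those near a limit and those below 1 FPKM, were chosen after their values were seen. The members, classes and gene lists were chosen with earlier results of these data known. Alternatives were a threshold of 3, pseudocounts of 0.1 and 1, no minimum or a minimum of 5 FPKM, 2 other scalings, separate intervals, and leaving out loci outside their own interval. The code of the fold and interval steps was checked on simulated data with planted 4-fold shifts. The simulated intervals were much narrower than the real ones, so this does not show how the interval rule performs on these data. Python 3.11.15, numpy 2.4.6, pandas 2.3.3 and matplotlib 3.10.9 were used.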

Additional observations from a re-analysis of the deposited data

How the results depend on the processing

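No paired analysis was possible because the deposited columns hold 1 pooled value per region and carry no replicate number, and for the same reason no library could be left out in turn. The counts of members at least 2-fold different depended on the settings as follows. Shares of all loci under the other thresholds, minimums and pseudocounts are not given here. Those counts therefore describe the members alone and cannot be set against all loci. Requiring separate intervals reduced the count to 0 higher and 1 lower within the epithelium, 3 and 4 from EQ to FP, 0 and 0 between the fiber regions, and 2 and 1 for fibers over epithelium. A threshold of 3 gave 4 lower between EC and EQ, 13 lower from EQ to FP, 0 higher from FP to FC, and 7 higher and 15 lower for fibers over epithelium. Without a minimum FPKM, 14 were lower between EC and EQ, 18 higher from EQ to FP, and 4 higher and 10 lower from FP to FC. A minimum of 5 FPKM gave 1 lower from EC to EQ, 0 higher and 0 lower from FP to FC, and 14 lower for fibers over epithelium. A pseudocount of 1 gave 3 lower from EC to EQ and 0 higher and 0 lower from FP to FC, and a pseudocount of 0.1 gave 1 higher from FP to FC. From FP to FC, 1 was higher under both the median ratio and the upper quartile scaling. The number of members highest in EQ by 2-fold, an analysis chosen after seeing the data, was 3 at a threshold of 3, 3 under the median ratio scaling and 0 with separate intervals. In the other 59 of 89 recomputed values, the count or the median of the members stayed within 1.5 times the reported one. The median log2 ratio of fibers over epithelium stayed negative for the members as a whole, between -0.89 and -0.45, and that of the remaining SLC5 class (SLC5A6 and SLC5A7) turned from -1.41 to 0.19 with a minimum of 5 FPKM, which leaves SLC5A6 alone. Of the other recomputed class medians, 90 stayed within 1.5 times on the linear scale and 5 did not (SLC38 at -1.61 with a pseudocount of 1, sodium-coupled sugar at 2.63 with a minimum of 5 FPKM, and monocarboxylate, SLC1 and cationic at -0.051, -0.47 and -0.33 without a minimum).

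Pooling of the libraries, wide intervals and the lack of read counts limit every value. The intervals come from the cuffdiff model and not from a spread computed here. Reads can be shared between the SLC7A5 loci, and the symbols of SLC2A3, SLC38A5 and the SLC16A3 locus on chromosome 1 are uncertain. FPKM values are relative to the other transcripts of a region.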
